A study of Homo sapiens with 9 samples.

Results

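The compared libraries were titled RBPJ and RBPJK175R, and both carry the genotype label FBXO42 knockout. Every interval on chromosomes 1 to 22 and X in the peak list of either library was a member, which gave 19912 intervals for RBPJ and 22691 for RBPJK175R. Together these were 42603 of the 174109 intervals in the 6 lists of the study, which had 9 libraries: 4 with an RBPJ antibody and 3 with control IgG from HEK293T cells, the latter not analysed here, and 2 of open chromatin from Jurkat cells. RBPJK175R is RBPJ with arginine in place of the lysine named in its title (K175R), and the labels do not say how either form was brought into the cells. Both libraries were made with an antibody to RBPJ by CUT&Tag, which places a transposase on an antibody so that DNA next to the bound protein is cut, from HEK293T, an established human embryonic kidney line. FBXO42 had been disrupted with lentiviral CRISPR constructs, and the labels do not say whether the cells were 1 clone. Each form of RBPJ was measured in 1 library, so no test between them was possible and every error below covers counting error only. An interval list holds no transcript levels, so the identity of the line and the loss of FBXO42 could not be checked in it.

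RBPJ is the DNA-binding protein at the end of the Notch pathway. Without a Notch signal it recruits corepressors to its sites, and after cleavage of a Notch receptor it holds the freed intracellular domain and a Mastermind coactivator there. FBXO42 is an F-box protein, the part of an SCF ubiquitin ligase that chooses its substrates, and ubiquitin is joined to lysines, which arginine cannot replace in that reaction. The comparison sets the list titled for the form without this lysine beside the list titled RBPJ, both from FBXO42 knockout cells. An antibody to RBPJ can also reach the cells' own RBPJ. The HEK293T lists without a titled form held 42655 and 36877 RBPJ intervals, in FBXO42 wild-type and knockout cells. The part of the cells' own RBPJ in either compared list was not tested.

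RBPJ is known to bind TGGGAA, and GTGGGAA is the longer form with its usual first base. Promoters of HES and HEY repressors, the classical Notch targets, and of PSENEN, a subunit of the protease that frees the Notch intracellular domain, are shown. Each one shown holds these letters. The promoters of NRARP, MAML3, HES7, ID3, CDK8, JAG1 and NOTCH1 were also looked up, held no TGGGAA and are not shown. NRARP and MAML3 had wider RBPJ intervals (5360 bp and 4401 bp) than HEYL and HEY2 (782 bp and 2502 bp). The stretches are thus examples picked for their letters. The letters are from RefSeq (GRCh38.p14), run 5′ to 3′ along the gene's own strand and end before its start. Capitals mark TGGGAA or GTGGGAA, or the same letters on the other strand (TTCCCA or TTCCCAC).
HES1 (chr3:194136043-194136103, plus strand): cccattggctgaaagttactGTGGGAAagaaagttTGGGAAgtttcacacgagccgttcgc
HES4 (chr1:1000148-1000194, minus strand): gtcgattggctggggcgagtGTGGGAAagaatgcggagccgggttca
HEYL (chr1:39639717-39639841, minus strand): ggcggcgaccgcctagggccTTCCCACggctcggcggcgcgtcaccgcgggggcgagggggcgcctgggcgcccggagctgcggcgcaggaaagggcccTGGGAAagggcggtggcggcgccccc
HEY2 (chr6:125749399-125749445, plus strand): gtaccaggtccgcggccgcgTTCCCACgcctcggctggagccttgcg
PSENEN (chr19:35745431-35745476, plus strand): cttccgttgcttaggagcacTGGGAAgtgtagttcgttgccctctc
HES5 (chr1:2530318-2530507, minus strand): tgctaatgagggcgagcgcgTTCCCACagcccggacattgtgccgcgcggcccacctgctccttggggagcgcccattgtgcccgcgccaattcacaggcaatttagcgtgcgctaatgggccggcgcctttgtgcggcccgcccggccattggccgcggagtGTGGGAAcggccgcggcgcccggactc
The stretches of HES1, HES4, HEYL, HEY2 and PSENEN were covered by an interval in both lists. The HES5 stretch, with GTGGGAA at 2 places, was covered in neither.

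The lists differed in depth, and this touches each result that follows. From the authors' fold and p-value per interval, the reads stacked at each summit (the highest point of an interval) could be recovered as whole numbers. The depth of the RBPJK175R library was estimated at 55.0% of that of the RBPJ library, from the lowest background in each list. The median RBPJ summit held 17 reads and the median RBPJK175R summit 9. Summits of 5 or fewer reads made up 6.10% of the RBPJK175R list and 0% of the RBPJ list. The share of depth in any difference below was not tested, and depth and the form of RBPJ cannot be told apart with 1 library each.

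The RBPJK175R list held more intervals that covered less of the genome. It had 1.14 times as many (95% interval 1.12 to 1.16), over 15.8 Mb against 17.3 Mb. With an overlap of at least 1 bp counted as shared, 8729 RBPJ intervals were shared (43.8%, 43.1 to 44.5, exact Clopper-Pearson) and 9004 RBPJK175R intervals (39.7%, 39.04 to 40.32). This left 11183 RBPJ and 13687 RBPJK175R intervals unshared. Both orders turned among intervals whose −log10 q, the authors' measure of confidence, was at least 5: there the RBPJK175R list had 0.798 times as many intervals, and 61.5% of them were shared against 47.9% of RBPJ intervals. On chromosome X the shared share was highest, at 55.6% and 55.9%. The lowest were 35.9% on chromosome 21 for RBPJ and 29.6% on chromosome 22 for RBPJK175R.

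Intervals were narrower in the RBPJK175R list. The median width was 660 bp (653 to 667) for RBPJ and 539 bp (535 to 543) for RBPJK175R, and the RBPJK175R median was the lower one on 23 of 23 chromosomes. Intervals over 2 kb numbered 963 (4.84%) and 485 (2.14%). Shared intervals had a median of 966 bp in the RBPJ list and 769 bp in the RBPJK175R list, and unshared intervals 539 bp and 469 bp. Unshared RBPJ intervals were thus as wide as the RBPJK175R list as a whole. At promoters, defined as overlap with 1 kb on both sides of the start of a protein-coding gene, the medians were 900 bp and 739 bp. Within genes they were 575 bp and 504 bp, and between genes 582 bp and 504 bp.

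**Figure D1:**
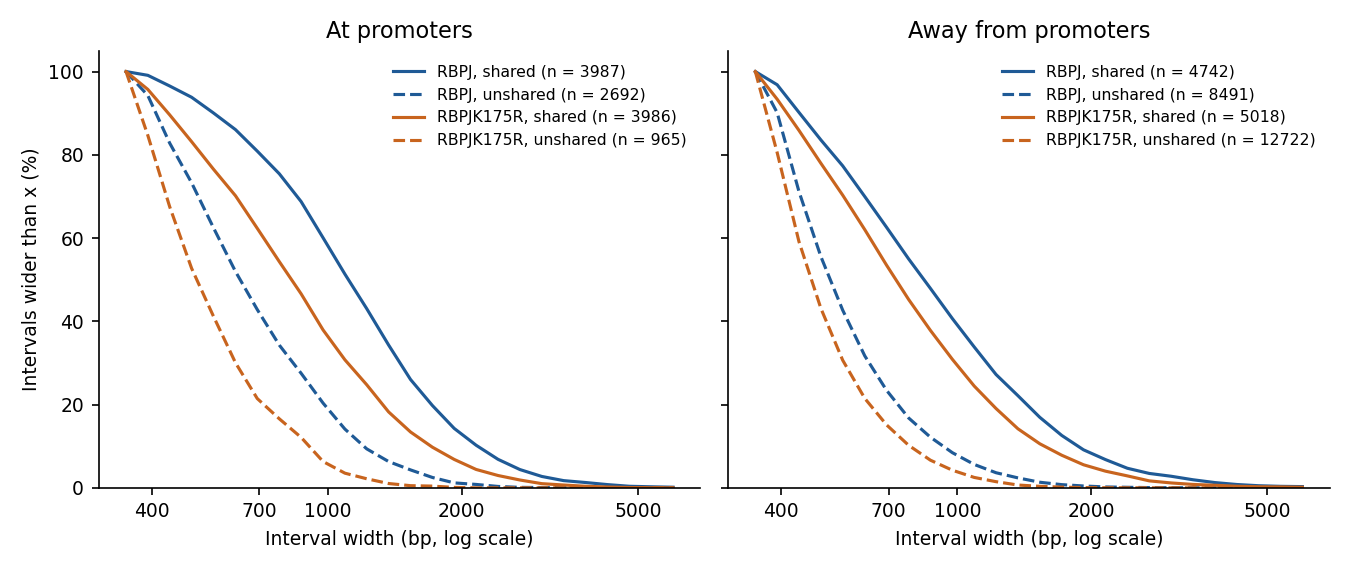
Share of intervals (%) wider than the width on the x axis (bp, log scale), at promoters (left) and elsewhere (right); solid lines are shared and dashed lines unshared intervals, blue RBPJ and orange RBPJK175R. Shared RBPJ promoter intervals lie furthest to the right (median 1110 bp), followed by shared RBPJK175R (829 bp), unshared RBPJ (635 bp) and unshared RBPJK175R (503 bp).

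Wider intervals were shared more often in both lists. Of intervals under 500 bp, 18.6% of the RBPJ list and 18.9% of the RBPJK175R list were shared. At 2000 bp or more the shares were 93.9% and 98.8%. The lists parted most at narrow promoter intervals. There, under 500 bp, 59.95% of RBPJK175R intervals were shared (57.1 to 62.8) but 25.4% of RBPJ intervals (22.7 to 28.2). Under 500 bp and away from promoters the order was the other way, with 13.3% of RBPJK175R intervals shared and 17.1% of RBPJ intervals.

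A direct comparison of the same sites used 8207 pairs in which an interval of each list overlapped only the other. The RBPJK175R interval was 0.862 times as wide as its RBPJ partner in the median (0.851 to 0.872), and narrower in 65.4% of pairs (64.3 to 66.4). It was 0.5 times as wide or less in 1107 pairs (13.5%) and 2 times as wide or more in 294 (3.58%). The narrowing was larger at promoters, where the median ratio over 3673 pairs was 0.815 (0.802 to 0.827). Over 4418 pairs away from promoters it was 0.917 (0.906 to 0.929). Where the authors' −log10 q was 10 or more in both lists the ratios were 0.847 at 1641 promoter pairs and 0.920 at 900 others. The ratio also moved with the RBPJ width itself, from above 1 for RBPJ intervals under 500 bp to 0.729 for those of 2000 bp or more, although bins on a width that enters the ratio are not independent of it.

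**Figure D2:**
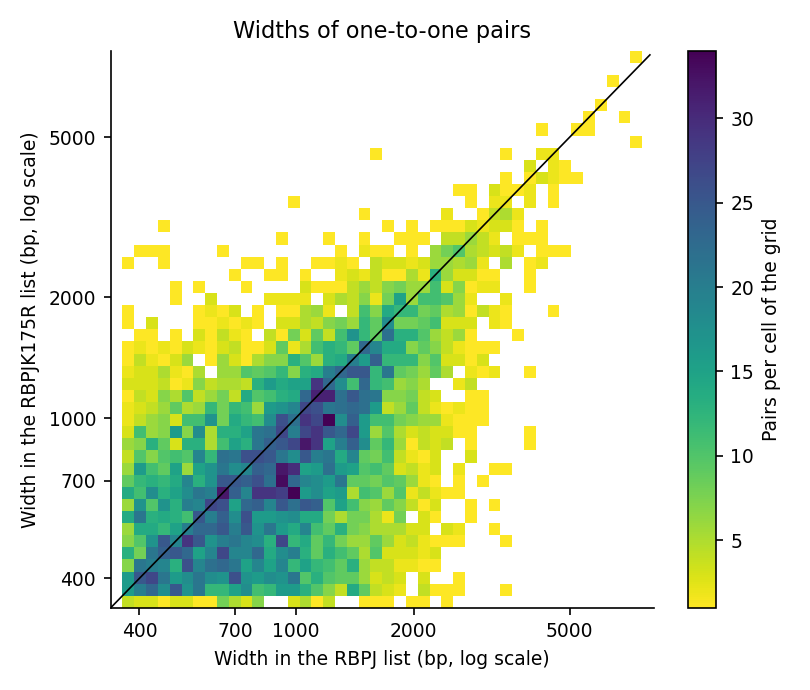
Widths of the 8207 pairs, RBPJ on the x axis and RBPJK175R on the y axis (bp, both log scales); colour gives the number of pairs in each cell of the grid and the line marks equal widths. Pairs lie below the line in 65.4% of cases, and the spread about it is wide.

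Many wide RBPJ intervals were met by several RBPJK175R intervals. An RBPJ interval overlapped 2 or more RBPJK175R intervals in 350 cases (4.01% of shared intervals), and the reverse held in 93 (1.03%). Of shared RBPJ intervals of 3000 bp or more, 116 of 248 (46.8%, 40.4 to 53.2) met several RBPJK175R intervals. The share was 17.3% (10.6 to 25.97) of RBPJK175R intervals of that width that met several RBPJ intervals. The RBPJ intervals that met several had a median width of 2445 bp, and 50.3% of them were at promoters, against 943 bp and 45.5% for those that met 1.

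Summits lay close together, and closer at promoters. The 2 summits of a pair were 138 bp apart in the median (134 to 142), within 50 bp in 24.2% of pairs, within 100 bp in 40.5% and within 250 bp in 68.7%. They were over 500 bp apart in 1005 pairs (12.2%), and the largest distance was 3094 bp. The median was 107 bp at promoters, where 48.2% of summits were within 100 bp of each other, and 169 bp elsewhere, where 34.5% were. With a −log10 q of 10 or more in both lists the medians were 74 bp and 86 bp, so the gap between the settings was smaller among the stronger pairs. The RBPJK175R summit lay inside the RBPJ interval in 87.3% of pairs, and the RBPJ summit inside the RBPJK175R interval in 82.6%. At promoters the RBPJK175R summit was downstream of the RBPJ summit, in the direction of transcription, in 44.8% of 2975 pairs (43.0 to 46.6), with a median shift of -9 bp. Away from promoters it was downstream in 50.4% of 3199 (48.6 to 52.1).

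Around gene starts both lists had summits heaped on both sides of the start and fewer just before it. Of shared RBPJ promoter summits, 8.62% lay in the 50 bp centred at -225 bp, 5.02% in those at -25 bp and 7.73% in those at 25 bp, and of shared RBPJK175R summits 7.57%, 4.21% and 6.32%. Shared promoter summits had a median position of -88 bp from the start in the RBPJ list (-101 to -70) and -117 bp in the RBPJK175R list (-138 to -100). Unshared promoter summits had median positions of -3 bp (-29 to 15) and 4.5 bp (-83 to 55). A flat spread over this symmetric window would also have a median near the start, so these medians do not show a heap there. The 1913 unshared RBPJ summits were a median of 226 bp from the start (218 to 242), near the 205 bp of shared ones. The 550 unshared RBPJK175R summits were further away, at 361 bp (320 to 384), and 38.9% of them were within 250 bp of the start, against 53.7% of unshared RBPJ summits.

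The setting of the unshared intervals differed more between the lists than that of the shared ones. Promoters held 33.5% of all RBPJ intervals (32.9 to 34.2) and 21.8% of RBPJK175R intervals (21.3 to 22.4), and the RBPJK175R share was the lower one on 23 of 23 chromosomes. Among shared intervals the promoter shares were 45.7% and 44.3%. Among unshared intervals they were 24.1% (2692 intervals, 23.3 to 24.9) for RBPJ and 7.05% (965, 6.63 to 7.49) for RBPJK175R. Of RBPJK175R promoter intervals 80.5% were shared, and of RBPJ promoter intervals 59.7%. Within genes the order turned, with 26.9% and 33.4% shared, and between genes the values were 28.0% and 37.5%. Unshared intervals over 100 kb from any protein-coding start were 17.3% of the RBPJK175R list's unshared intervals and 11.0% of the RBPJ list's.

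Unshared intervals rarely lay just beside an interval of the other list. Within 1 kb of one were 10.6% of unshared RBPJ and 8.53% of unshared RBPJK175R intervals, and the median gaps were 12.6 kb and 19.3 kb. At promoters the shares were 10.3% and 20.8%.

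The 2 other RBPJ lists of the study, from HEK293T cells with intact or knocked-out FBXO42 and without a titled RBPJ form, were not used to define shared and unshared. Shared RBPJ intervals overlapped the list from FBXO42 wild-type cells in 76.0% of cases and that from FBXO42 knockout cells in 70.6%. Shared RBPJK175R intervals did so in 75.4% and 69.8%. Unshared RBPJ intervals were found there in 38.1% (37.2 to 39.05) and 33.1% (32.2 to 34.0), and unshared RBPJK175R intervals in 15.1% (14.5 to 15.7) and 17.2% (16.6 to 17.8). In neither list were 50.3% of unshared RBPJ and 74.3% of unshared RBPJK175R intervals. The gap was present among intervals from 500 bp to under 1000 bp, where the unshared values for the wild-type list were 42.3% and 19.7%. It was also present at unshared promoters, with 77.1% of RBPJ and 48.8% of RBPJK175R intervals.

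Open chromatin of Jurkat, a leukaemic T cell line without a titled RBPJ form, showed the same order. The ATAC-seq list from FBXO42 wild-type Jurkat cells overlapped 64.0% of shared RBPJ and 61.6% of shared RBPJK175R intervals. It overlapped 27.2% of unshared RBPJ and 9.41% of unshared RBPJK175R intervals. These cells are of another lineage, so an interval missing from this list can still lie in open chromatin of HEK293T.

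**Figure D3:**
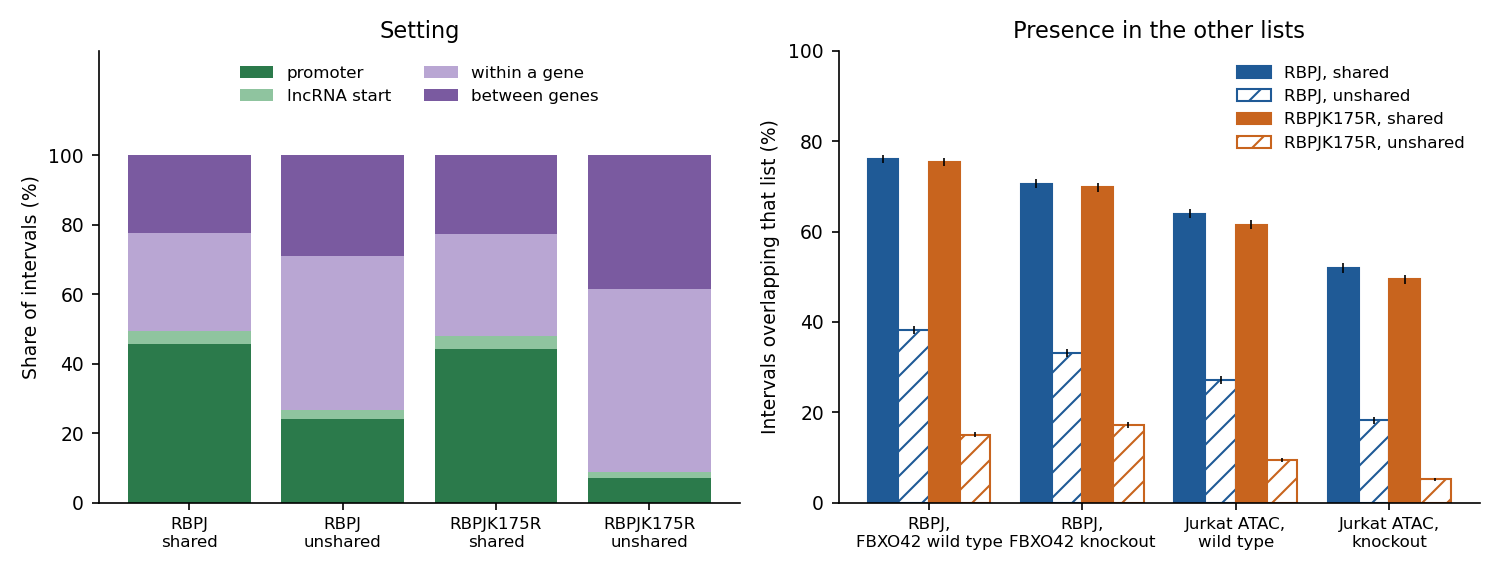
Left, share of intervals (%) at promoters, lncRNA starts, within genes and between genes for the 4 classes. Right, share (%) of each class that overlaps the lists named on the x axis, with 95% exact binomial intervals; unshared RBPJK175R bars are the lowest in each group, at 15.1%, 17.2%, 9.41% and 5.20%.

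Sharing at promoters went with the height of the RBPJ interval. Of RBPJ promoter intervals with under 20 summit reads 30.2% were shared, of those with 20 to 49 reads 60.01%, of those with 50 to 99 reads 87.0% and of those with 100 or more 96.8%. Away from promoters the shares were 23.8%, 61.3%, 93.2% and 94.8%. In pairs whose RBPJ summit had 100 or more reads at a promoter, the medians were 150.5 reads for RBPJ and 72 for RBPJK175R, a median ratio of 0.447 (0.433 to 0.466). Away from promoters the ratio was 0.466 (0.448 to 0.504), and the ratio of depths was 0.550. For RBPJ summits under 20 reads the ratios were above that, at 0.625 at promoters and 0.667 elsewhere. Bins on RBPJ reads are not independent of a ratio that these reads enter. The values thus do not show whether RBPJK175R reads were below the ratio of depths.

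By gene, promoter intervals of the RBPJK175R list were largely a subset of the RBPJ list. Of 19970 protein-coding genes, 7279 (36.4%) had an RBPJ promoter interval and 5412 (27.1%) an RBPJK175R one. Both lists had one at 4619 genes (23.1%), the RBPJ list alone at 2660 (13.3%) and the RBPJK175R list alone at 793 (3.97%). Counting only intervals whose −log10 q was 10 or more, these became 2164, 1714 and 173 genes. As shares of each list's own genes, 36.5% had no RBPJK175R interval and 14.7% no RBPJ interval. At 96 of the 2660 and 18 of the 793 genes the interval did overlap one of the other list outside the promoter window. The strongest promoter intervals overlapped at 4373 of the 4619 genes (94.7%), and the RBPJK175R interval was narrower at 3184 of these.

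Of 36 Notch target genes, 21 had an RBPJ promoter interval (58.3%, against 36.4% of all genes) and 17 an RBPJK175R one (47.2%, against 27.1%). Both lists had one at 16 genes, RBPJ alone at 5 and RBPJK175R alone at 1. The 16 overlapping pairs had median widths of 2107 bp and 1288 bp, and the RBPJK175R interval was narrower at 14. At 5 of the 16 the RBPJ interval met several RBPJK175R intervals, against 190 of the 4373 genes in all (4.34%). All 5 were among the 8 targets with an RBPJ interval of 2000 bp or more, and of all 603 such genes 143 (23.7%) met several. Of these 5, HES1, HEY1, NRARP and SNAI2 had RBPJ intervals over 3000 bp, as did MYC, which met 1. Over all shared RBPJ intervals of 3000 bp or more the share that met several was 46.8%. A higher share at targets than at sites of like width is thus not shown. At the 11 targets with 1 interval in each list the median width ratio was 0.777, against 0.816 over 4154 genes, and the median read ratio 0.465 against 0.50. RBPJ intervals of these 11 were wider, at 1399 bp against 1108.5 bp, and those of the 16 taller, at 79 reads against 44. Over all pairs with RBPJ widths from 1000 bp to under 2000 bp the median width ratio was 0.723. Over promoter pairs with 50 to under 100 RBPJ reads the median read ratio was 0.455. Lower ratios at targets than at sites of like width or height are thus not shown.

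HES1, the repressor taken as the standard Notch readout, had a 5251 bp RBPJ interval (chr3:194133032-194138282) whose summit held 150 reads at -1292 bp from the start. The RBPJK175R list had 3 intervals that overlapped it, of 647 bp, 3041 bp and 3155 bp. The last began at 194138128 and so met only the edge of the RBPJ interval. Its summit, 4639 bp past the start, lay outside the RBPJ interval. The middle one spanned the start and the letters shown above, and its summit held 45 reads, 154 bp from the RBPJ summit. Summits at HES1 were thus upstream of the paired TGGGAA letters in both lists.

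HES4, of the same family, had 309 reads over a 1937 bp RBPJ interval and 111 over a 1071 bp RBPJK175R interval, with summits at -492 bp and -322 bp. HES7, the oscillating repressor of somite formation, had 24 and 15 reads over 1331 bp and 589 bp. HES2 had an interval of 942 bp and 19 reads in the RBPJ list alone. HES5 had none in either.

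Of the HEY repressors, HEY1 had the widest RBPJ interval among the targets, 6178 bp with 214 reads, beside 2 RBPJK175R intervals of 455 bp and 2764 bp, the latter with 49 reads. HEY2 had 96 and 36 reads over 2502 bp and 2334 bp, with summits at -233 bp and -94 bp. Its RBPJ interval also met another RBPJK175R interval at its edge, of 1361 bp and 15 reads, whose summit at -2180 bp lay outside the RBPJ interval. HEYL went the other way in width, with 782 bp in the RBPJ list and 951 bp in the RBPJK175R list, over 50 and 23 reads.

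NRARP, which dampens Notch signalling, had 1 RBPJ interval of 5360 bp with 62 reads and 3 RBPJK175R intervals of 1108 bp, 656 bp and 1484 bp with 32, 16 and 16 reads. SNAI2, a repressor of epithelial genes, had 130 and 37 reads over 3232 bp and 1973 bp, and its RBPJ interval met another RBPJK175R interval of 693 bp. MYC, the growth regulator, had nearly equal widths of 3374 bp and 3254 bp with 130 and 44 reads. HEY1, MYC and SNAI2 are on chromosome 8, where starts were not known and either annotated end was used.

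ID1, ID2 and ID3, inhibitors of helix-loop-helix factors, were in both lists. ID1 had 137 and 75 reads over 2603 bp and 2165 bp. ID2 had 124 and 62 reads with the summit at the same base, -662 bp, over 1987 bp and 1103 bp. ID3 was wider in the RBPJK175R list, at 1468 bp against 1041 bp, with 20 and 43 reads. CDKN1A, an inhibitor of the cell cycle, had 1399 bp against 416 bp. TSPAN15, a partner of the ADAM10 protease, had summits 670 bp apart.

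RBPJ intervals without an RBPJK175R counterpart stood at JAG1 (3707 bp, 25 reads), NOTCH1 (906 bp, 20 reads), IGF1R, SNAI1 and HES2. Summits at JAG1, NOTCH1 and IGF1R held 20 to 40 reads, a height at which 60.01% of all RBPJ promoter intervals of 20 to 49 reads were shared. By width JAG1 was unusual, since 94.9% of RBPJ promoter intervals of 2000 bp or more were shared. SNAI1 and HES2 had 19 reads each, and under 20 reads 30.2% were shared. SOX9 had the single RBPJK175R interval without an RBPJ one, with 9 reads.

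Among 11 Notch receptors and ligands, 4 had an RBPJ and 2 an RBPJK175R promoter interval (36.4% and 18.2%, against 36.4% and 27.1% of all genes), so the RBPJ share was that of all genes. JAG1 and DLL3, both ligands, and the receptor NOTCH1 were in the RBPJ list alone. DLK1, an atypical ligand, was in the RBPJK175R list alone with 7 reads. DLK2 was in both, with widths of 1656 bp and 457 bp and summits 741 bp apart.

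Of 29 genes for processing and modulation of Notch, 10 had an RBPJ interval, 12 an RBPJK175R interval and 9 had both. These were 34.5%, 41.4% and 31.0% of the list, against 36.4%, 27.1% and 23.1% of all genes, so the RBPJ share was near that of all genes. PSENEN stood out by height, with 300 RBPJ and 189 RBPJK175R reads over 3880 bp and 3353 bp. Its summits, at -240 bp and -246 bp, lay just upstream of the TGGGAA printed above, which begins at -200 bp. Its read ratio was 0.630, beside a median of 0.447 and quartiles of 0.367 and 0.550 over promoter pairs of 100 or more RBPJ reads. MIB2, a ubiquitin ligase for Notch ligands, had the opposite balance, with 177 and 33 reads (ratio 0.186) over nearly equal widths of 1077 bp and 1102 bp. ADAM17, a protease that sheds membrane proteins, and CDK8, which phosphorylates the Notch intracellular domain, were wider in the RBPJK175R list, at 1181 bp against 986 bp and 768 bp against 395 bp.

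PSEN2, a catalytic subunit of the same protease as PSENEN, was in the RBPJ list alone. FURIN, NCSTN and NEURL1 were in the RBPJK175R list alone, with 12, 14 and 12 reads. At FURIN and NEURL1 the −log10 q was 1.78 and 1.81, near the lowest of that list (1.32). Their summits, at -1400 bp and -1274 bp, lay outside the 1 kb window, which the intervals reached only with an edge. POFUT1, which adds fucose to Notch, had intervals that did not overlap but nearly touched, with summits at -202 bp and -1278 bp. On chromosome 20 the RBPJK175R interval ended at 32207101 and the RBPJ interval began at 32207116.

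Of 11 coactivator genes, 7 had a promoter interval in each list (63.6%, against 36.4% of all genes for RBPJ and 27.1% for RBPJK175R) and 6 in both. MAML3, a Mastermind coactivator, had 1 RBPJ interval of 4401 bp with 82 reads at 2267 bp past its start. The RBPJK175R list split it into 2986 bp with 55 reads at 2612 bp and 848 bp with 23 reads at -128 bp. PHF8, a histone demethylase, was wider in the RBPJK175R list, at 2365 bp against 1594 bp, but had 34 reads against 123. EP300, a histone acetyltransferase, had 47 and 23 reads. Its relative CREBBP was in the RBPJ list alone, with 11 reads and a −log10 q of 1.38, near the lowest of that list (1.30). KAT2A, another acetyltransferase, was in the RBPJK175R list alone, with 15 reads and a −log10 q of 5.63.

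Of 24 corepressor genes, 16 had an RBPJ promoter interval, 13 an RBPJK175R promoter interval and 11 had both. These were 66.7%, 54.2% and 45.8% of the list, against 36.4%, 27.1% and 23.1% of all genes. Lists of other genes lay on both sides of these shares. NF-kappaB genes had 83.3%, 66.7% and 66.7%, housekeeping genes 81.25%, 62.5% and 62.5%, and solute carriers 34.0%, 21.6% and 18.7%. An excess particular to corepressor, coactivator or Notch target genes is thus not shown. SPEN, the scaffold of the RBPJ corepressor complex, had a 7560 bp RBPJ interval (chr1:15846085-15853644) with 646 reads at 2024 bp past the start. The RBPJK175R list had 3 intervals over it, of 4956 bp, 1943 bp and 1244 bp, with 42, 315 and 19 reads. The tallest had its summit 112 bp from the RBPJ summit, so both lists placed the main SPEN signal downstream of the start.

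SIN3A, a scaffold for histone deacetylases, had 765 reads in a 6150 bp RBPJ interval (chr15:75450019-75456168), with the summit 3882 bp past the start. The RBPJK175R list had 3 intervals there, of 1003 bp, 2928 bp and 881 bp, with 191, 331 and 31 reads. The summit of the tallest was 71 bp from the RBPJ summit, and the 31 reads were at the start itself, at -54 bp.

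TLE1, TLE3 and TLE4, Groucho-type corepressors, were in both lists. TLE4 had 508 and 200 reads with summits 1 bp apart, at -272 bp and -273 bp, over 2669 bp and 1356 bp. Another RBPJK175R interval of 446 bp also met the RBPJ interval of TLE4. TLE1 had 102 and 44 reads over 2175 bp and 1258 bp. SAP30, a SIN3A partner, had 56 and 33 reads over 2306 bp and 2135 bp. BEND6, CTBP2, HDAC2 and TLE2 were among those in the RBPJ list alone, with 18 to 27 reads, and HDAC1 and HDAC3 in the RBPJK175R list alone, with 16 and 14.

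The other gene lists are read beside the 23.1% of all genes in both lists and the 13.3% in the RBPJ list alone. Of 32 cell cycle genes, 21 were in the RBPJ list and 20 in both, and CCNE1, a cyclin of S phase entry, was in the RBPJ list alone. Of 14 SCF ubiquitin ligase genes 9 were in both lists and 1, UBE2N, in the RBPJ list alone. Of 12 NF-kappaB genes 8 were in both, with RELA (45 reads) and NFKB1 (21 reads) in the RBPJ list alone. Of 16 housekeeping genes 10 were in both and 3 in the RBPJ list alone, among them ACTB with 72 reads. Cytosolic ribosomal protein genes were in both lists at 40 of 85.

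Genes in the RBPJ list alone were 9 of 36 for complex I of the respiratory chain, 15 of 77 for mitochondrial ribosomal proteins, 58 of 379 for solute carriers and 6 of 32 for chromatin remodellers, beside 13.3% of all genes. As shares of the genes with an RBPJ interval these were 42.9%, 41.7%, 45.0% and 27.3%, beside 36.5% over all genes. On that base the remodeller share was below that of all genes. The remodellers in the RBPJ list alone include EZH2, with 51 reads, and PBRM1, with 31. Genes in the RBPJK175R list alone were 8 of 69 for replication-dependent histones, 8 of 77 for mitochondrial ribosomal proteins and 5 of 39 for HOX genes, beside 3.97% of all genes. Of the genes with an RBPJK175R interval these were 8 of 30, 8 of 29 and 5 of 28, beside 14.7% over all genes. Neighbouring histone genes share intervals, so the 27 and 30 histone genes in the lists stood for 19 and 19 sites. At CENPC and CENPH, genes of centromere proteins, the RBPJK175R list alone had an interval, of 22 and 26 reads.

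Lists of genes that mark other tissues, and a kidney and epithelial list set beside them, had fewer promoter intervals than the 36.4% and 27.1% of all genes. Of 31 T cell genes 7 and 4 had one in the RBPJ and RBPJK175R list, of 19 B cell and myeloid genes 3 and 2, of 19 kidney and epithelial genes 5 and 4, of 390 olfactory receptors 1 and 2 and of 55 keratins 0 and 2. At HOX genes the widths were near equal, with a median ratio of 1.04 at 17 genes.

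Across strong promoter pairs, the 6 with the highest authors' fold in the RBPJ list had summits at most 182 bp apart. At GSK3A, a kinase, the summits of 1268 and 454 reads were 1 bp apart. At MGRN1, a ubiquitin ligase, they were 10 bp apart, with 282 and 97 reads. At PCF11, which acts in transcription termination, they were 37 bp apart over widths of 2587 bp and 2622 bp. At the start shared by CDCA3 and USP5 the tallest of these summits held 1592 and 510 reads, 38 bp apart. ENY2 with NUDCD1 and HCFC1 with TMEM187 had summits 32 bp and 182 bp apart.

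The lowest width ratios among strong promoter pairs (−log10 q of 10 or more in both lists) included 0.161 at ZBTB21, where 2566 bp stood against 414 bp. LBR, PTPN14, CXADR and ZNF768 had ratios of 0.203 to 0.242. The highest were 4.05 at FANCG, a DNA repair gene, where 499 bp stood against 2022 bp, 3.10 at KAT8 and 2.60 at PLK3. INTS4 had a ratio of 2.56 with summits 1 bp apart, and BTN3A2 2.36 with summits 2 bp apart, while the summits at KAT8 were 120 bp apart. The largest summit distances were 1489 bp at DHRS3, 1451 bp at PTCH1, the Hedgehog receptor, and 1252 bp at STAU2. These pairs were picked as extremes and their values are a description.

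Over 10 kb from any protein-coding start lay 3140 shared RBPJ intervals, 5684 unshared RBPJ intervals and 9416 unshared RBPJK175R intervals. The tallest shared one was on chromosome 21 (chr21:6368617-6372528), 95.7 kb from LOC102724560, with 2361 and 1105 reads and the summit at the same base. Next by fold came intervals 11.6 kb from GRIN1, with 405 and 104 reads, and 206.9 kb from KCNU1, with 278 and 141. One lay 68.5 kb from CXCL12, a chemokine gene, with 163 and 60 reads, and those nearest to ACTRT1 and TRHR had 132 and 52 and 130 and 60.

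Distal intervals of 1 list alone were lower. The highest in the RBPJ list by fold lay nearest to RNF4, with 70 reads, and RASA4B, with 101. Those by GPR39, PIK3CD, BHLHE40 and RBMS3 had 51, 34, 63 and 31. In the RBPJK175R list they lay nearest to RHOT1 (21 reads), LOC107987457 (20), HS6ST2 (18), MYL12BP2 (18), ARRDC4 (17) and ZNF703 (20). Of these picked sites, 5 of the 6 for RBPJ and 5 of the 6 for RBPJK175R were in the list from FBXO42 wild-type cells, and 4 and 3 in that from FBXO42 knockout cells. Over all unshared intervals away from promoters the shares were 25.8% and 12.5% in the wild-type list and 27.1% and 16.0% in the knockout list.

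In the 300 bases around 15811 known starts (250 before, 50 after), GTGGGAA on either strand was in 7.47% (6.66 to 8.36) of promoters with an interval in both lists. It was in 5.49% of RBPJ-only, 5.57% of RBPJK175R-only and 5.53% (5.07 to 6.01) of promoters in neither, and in 5.99% of all. For TGGGAA, which GTGGGAA contains, the shares were 27.4%, 19.95%, 22.1% and 21.4%, and 22.7% of all. The other first bases were looked at after values were seen. TTGGGAA was in 2.91% (2.24 to 3.72) of RBPJ-only and 5.07% (3.44 to 7.16) of RBPJK175R-only promoters. It was in 4.25% of promoters in both lists, 4.53% of those in neither and 4.26% of all. In RBPJ-only and RBPJK175R-only promoters the shares were 2.54% and 2.36% for ATGGGAA and 10.8% and 10.5% for CTGGGAA. The GC content of the 4 groups was 64.5%, 67.2%, 62.9% and 58.7%, and its part in these shares was not tested. At 264 promoters with 1 GTGGGAA and overlapping intervals, the RBPJ summit was 174.5 bp from it in the median (152 to 213) and the RBPJK175R summit 199.5 bp (178 to 238). The same summits were 204 bp and 252 bp from the gene start. RBPJ was the nearer one at 143 of these promoters and RBPJK175R at 115.

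A longer run around TGGGAA was looked at after the PSENEN letters had been seen. TGGGAANTGTAGT (N is any base, both strands searched) overlaps TGGGAA and resembles the element bound by ZNF143, a zinc finger activator of many promoters. It was in 2.53% (2.06 to 3.09) of promoters in both lists, 1.13% (0.723 to 1.67) of RBPJ-only, 0.845% (0.275 to 1.96) of RBPJK175R-only and 0.462% (0.335 to 0.622) of promoters in neither, and in 1.06% of all. Promoters with CTGGGAA were 14.2% of those in both lists and 9.82% of those in neither, a gap in percentage points wider than for GTGGGAA. At 89 promoters with 1 match to the longer run and overlapping intervals, the RBPJ summit was 114 bp from it (90 to 162) and the RBPJK175R summit 148 bp (127 to 167). A match is a description of letters and says nothing of which protein was bound.

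At FBXO42 itself both lists had a promoter interval, of 1162 bp with 38 reads and 791 bp with 21, and summits 10 bp apart. RBPJ had no interval within 1 kb of the start used here (chromosome 4, position 26163458) in either list, and its other possible starts were not analysed. Within the RBPJ gene a shared interval held 198 and 85 reads (chr4:26318706-26321231 in the RBPJ list).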

How the data were processed

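Peak lists of 1 library each were used as deposited. Per the submitters' processing notes, reads were handled with Bowtie2, Trim Galore, deepTools and MACS2 on hg38. The names of both compared lists set them against IgG. No source used here states which IgG library served, or the versions, settings or threshold of the tools. The deposited rows give positions in bp, the authors' fold (a ratio of summit pileup to local background), and the −log10 of a p-value and of a q-value, which served only to describe, rank and filter within a list. Whole reads at summits were recovered from the deposited fold and −log10 p within 0.1% for 100% of intervals; steps were 1 read for RBPJK175R and 0.812 for RBPJ, where the pileup had been scaled. Depth was set by the lowest background over the smallest width. The values of the IgG libraries were not analysed here.

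Intervals on chromosomes 1 to 22 and X were compared in Python 3.11.15 (numpy 2.4.6, pandas 2.3.3, scipy 1.17.1). Gene starts came from RefSeq promoter sequences for 15811 protein-coding genes; for 4159 others, all those of chromosome 8 among them, either annotated end was used. A gene's strongest promoter interval by fold stood for it. Shares have 95% Clopper-Pearson intervals, medians order-statistic intervals, and the count ratio an exact binomial one. No p-value was computed. The overlap and read recovery steps were tested on simulated data. Alternatives changed the −log10 q minimum, the overlap, the promoter window and the chromosomes. Members and 24 gene lists were chosen with earlier results of these data known. Named were members of the Notch and cofactor lists with an interval, up to 4 members of other lists with an interval in 1 list only by fold, and the 6 extremes of each kind among strong promoter pairs and distal intervals; sequences, all promoter letters other than TGGGAA and GTGGGAA, and values of split intervals were chosen after values were seen. EZH2, PBRM1, ACTB, CENPC and CENPH fall under the second part of this rule. Some named items are not reported here.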

Additional observations from a re-analysis of the deposited data

Results flagged for a closer look

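Outside chromosomes 1 to 22 and X, which no comparison used, the RBPJ list held 79 intervals and the RBPJK175R list 65. They were looked at again because they lie in deposited data that the comparisons leave out, and their sequences were not analysed further.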

How the results depend on the processing

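Of 84 recomputed values, 41 stayed within their counting interval (for gene counts, within 1.5 times) and 43 moved further. The order of the lists turned only in the number of intervals and the shared share, both with the stricter −log10 q. With a −log10 q of at least 5, then 10, the number ratio was 0.798 and 0.627, and median widths were 913 and 1166 bp for RBPJ and 760 and 1055 bp for RBPJK175R. Shared shares were 47.9% and 51.8% for RBPJ and 61.5% and 83.8% for RBPJK175R. Promoter shares were 47.3% and 61.1%, and 38.6% and 57.0%; summit distances were 100 and 79 bp. Presence in the FBXO42 knockout list was 82.0% and 90.7% for shared, 52.3% and 74.7% for RBPJ-only and 32.4% and 56.1% for RBPJK175R-only intervals. RBPJK175R-only genes numbered 449 and 173. At 10, genes of RBPJ only were 1714 and of both lists 2164, and GTGGGAA was in 8.90% of promoters in both. With an overlap of at least 50% of both intervals, 29.8% and 26.1% were shared, presence was 50.3%, 18.8% and 8.34%, the summit distance 114 bp and the width ratio 0.909. Promoter shares were 38.6% and 26.3% with 2 kb windows, 30.2% and 18.9% with 500 bp, 30.7% and 19.8% by summit, and 27.2% and 17.6% with known starts only, an alternative added after seeing the data. Presence by width class and by summit alone was also added then; by summit alone, 31.8% of unshared RBPJ and 11.2% of unshared RBPJK175R intervals were in the FBXO42 wild-type list. Without chromosome X, 38.97% of RBPJK175R intervals were shared. The cause was not tested. No paired analysis was possible because each group had 1 library.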

Other observations

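The RBPJK175R list had an interval near the end of the RBPJ gene that the RBPJ list lacked (chr4:26429902-26431473, 4298 bp from the annotated gene end to its summit). The recovered pileup at that summit was 252672 reads over a local background of 198491, a fold of 1.27. The next tallest summit of the list held 1105 reads. The high background at this place was part of the deposited values, and its source was not tested.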
